A study of Mus musculus with 12 samples.

Results

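The 10 genes described here, Pdgfra, Pdgfrb, Acta2, Des, Sparc, Lox, Loxl1, Loxl2, Tgfb1 and Reln, mark hepatic stellate cells and the crosslinking of the collagen they lay down. They were taken as a list of symbols and matched to probes through the platform's probe table. All 10 had a probe, 14 probes among the 26423 on the array and the 19084 genes named on it. Acta2, Lox, Loxl1 and Loxl2 had 2 probes each, which are called brighter and dimmer after their mean signal, and the other 6 genes had 1.

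Liver RNA of male C57BL/6 mice was hybridised to 12 single-colour arrays, 3 for each of 4 groups of 6 mice, after a fast of 12 h. PTFC mice, which received the flavonoid extract of Citrus under study, ate the high-fat diet for 24 weeks, the first 6 weeks alone and the following 18 weeks with a daily dose of 50 mg/kg by gavage. HFD24 mice ate that diet for 24 weeks and HFD16 mice for 16 weeks, and ND mice ate the normal diet for 24 weeks, all 3 groups with saline in place of the extract. The high-fat diet held 36.1% fat, with 10% lard and 2% added cholesterol, and the normal diet 12.3% fat. Mice were 31 to 33 weeks old in PTFC and HFD24, 23 to 25 weeks in HFD16 and 30 to 33 weeks in ND, so age goes with diet time wherever HFD16 is compared. The labels give no genotype beyond the strain, and do not say which mouse, or how many, each array came from. Every p-value below thus rests on variation among the 3 arrays of each group, part of which may come from the assay. For limma that spread was pooled over all 4 groups, so the standard error (SE) of a probe is the same in every comparison.

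Stellate cells are the pericytes of the liver sinusoid. In the healthy liver they store retinol esters in droplets. On injury they can turn into myofibroblasts under platelet-derived growth factor (PDGF), which drives their growth through the receptors encoded by Pdgfra and Pdgfrb, and transforming growth factor beta (TGF-beta), which drives their collagen output. Lysyl oxidases then oxidise lysines of collagen and elastin so that the fibres crosslink and resist breakdown. In whole liver RNA, more cells of a type and more RNA per cell cannot be told apart.

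Array medians in deposited intensity were 406, 369 and 408 with PTFC, 249, 336 and 338 in HFD24, 278, 330 and 287 in HFD16, and 379, 376 and 300 in ND. Every PTFC array thus had a higher median than every HFD24 array. Deposited readings below are not adjusted for this, while limma differences come from normalized values unless said otherwise. The number of arrays limits the precision. On the third HFD16 array the 7 skeletal muscle markers, listed as a check for foreign tissue, summed to 10702 in normalized intensity, against 578 to 959 on the other 11 arrays. Of the 7, Tnni2, fast skeletal troponin I, read 252, 530 and 3718 in deposited intensity on the HFD16 arrays, against 262, 302 and 172 on the ND arrays, and did not pass (1.91 ± 0.63 log2, SE, limma adjusted p = 0.0529). Mylpf, a fast muscle myosin light chain, passed in HFD16 against ND (0.79 ± 0.20, limma adjusted p = 0.0197), but the third array was not its highest, at 28.1, 43.9 and 31.4 in HFD16 against 30.8, 29.6 and 23.5 in ND. The member that muscle also makes, Des, is given without that array as well. The 9 measured hepatocyte markers were bright on all arrays, with sums of 2153270 to 2257160 with PTFC, 2041660 to 2122700 in HFD24, 2024280 to 2135290 in HFD16 and 2121270 to 2208180 in ND.

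Of the 14 probes, 8 were higher in HFD24 than in ND and none was lower, by limma with Benjamini-Hochberg adjustment over all probes. They stood for 7 of the 10 genes, Pdgfra, Pdgfrb, Des, Sparc, Lox, Loxl2 and Tgfb1. Among all probes 8.5% passed upward and 7.96% downward in that comparison. The median difference of the 14 probes was 0.91 log2 units, against -0.07 over all probes. With PTFC, Pdgfrb and both Loxl2 probes were lower than in HFD24, 3 probes of 14 against 2.71% of all probes passing downward, and no member was higher, against 3.07% upward. These 3 calls rested on single arrays: none passed without the first HFD24 array or without the third PTFC array, and 1, a Loxl2 probe, passed without the second HFD24 array. Calls over all 26423 probes fell too, from 1528 to 79, 8 and 304 in that order. Sparc and Loxl2 had the largest differences in HFD24 against ND, and Loxl2 and Pdgfrb in PTFC against HFD24. Both Acta2 probes, for the actin most used to mark activated stellate cells, did not pass in any comparison.

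**Figure D1:**
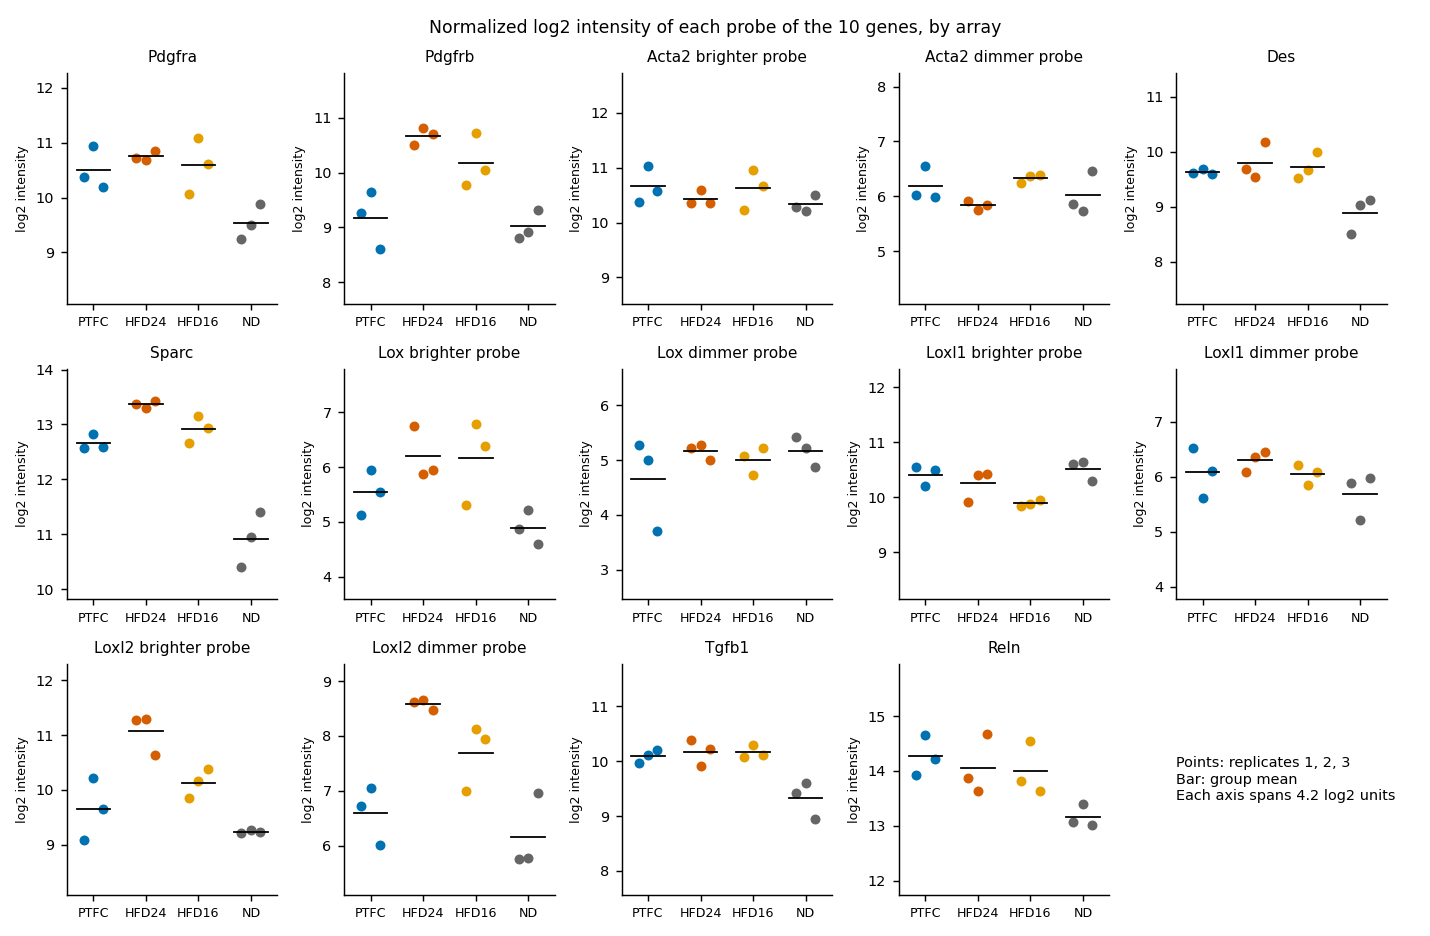
Normalized log2 intensity (vertical axis) of each of the 14 probes on the 12 arrays, by group from PTFC through HFD24 and HFD16 to ND; points are arrays and bars group means. For Pdgfrb and Loxl2 the PTFC arrays lie near ND, while for Pdgfra, Des, Tgfb1 and Reln they lie near HFD24.

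Pdgfrb encodes the receptor for the PDGF-B ligand and marks stellate cells and other pericytes. Its probe read 708, 855 and 473 in deposited intensity on the PTFC arrays, 1291, 1819 and 1732 on the HFD24 arrays, 778, 1753 and 979 on the HFD16 arrays, and 498, 535 and 577 on the ND arrays. All HFD24 arrays were above all PTFC and all ND arrays, and PTFC and ND overlapped. The difference was 1.65 ± 0.28 log2 units in HFD24 minus ND (SE, n = 3 per group, 3.15-fold higher, limma adjusted p = 0.00234). In PTFC minus HFD24 it was -1.50 ± 0.28 (2.82-fold lower, limma adjusted p = 0.0182), and limma adjusted p was 0.0587 without the first HFD24, 0.0526 without the second HFD24 and 0.0997 without the third PTFC array. PTFC minus ND gave 0.16, with a 95% interval of -0.45 to 0.76, and did not pass.

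Pdgfra encodes the other PDGF receptor, which also marks stellate cells and fibroblasts. It read 1426, 2083 and 1277 on the PTFC arrays, 1546, 1673 and 1906 on the HFD24 arrays, 964, 2282 and 1468 on the HFD16 arrays, and 653, 774 and 845 on the ND arrays. Every PTFC, HFD24 and HFD16 array lay above every ND array. The difference was 1.21 ± 0.27 in HFD24 minus ND (log2, SE, 2.31-fold, limma adjusted p = 0.00866). PTFC minus HFD24 was -0.25, with a 95% interval of -0.82 to 0.32, and did not pass (limma adjusted p = 0.61).

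The ratio of Pdgfrb to Pdgfra on the same array, from which any scaling of the array cancels, was 0.497, 0.411 and 0.37 with PTFC, 0.835, 1.09 and 0.909 in HFD24, 0.807, 0.768 and 0.667 in HFD16, and 0.762, 0.691 and 0.683 in ND. This ratio and the next were chosen after the values were seen. A ratio of probes says nothing of which receptor is more abundant, and only its change between groups is read. The log2 ratio was -1.24 ± 0.22 with PTFC and -0.09 ± 0.19 in HFD24 (SD, n = 3 each), a difference of -1.15. No PTFC array reached an HFD24, HFD16 or ND array. In an exact two-sided permutation test 3 against 3 gave p = 0.1, the smallest it can give (0.12 after adjustment over 6 ratio tests), so the ratio is a description.

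Of the 4 PDGF ligands, Pdgfb, the ligand of Pdgfrb, was higher in HFD24 than in ND (1.57 ± 0.28 log2, SE, limma adjusted p = 0.00302). It read 547, 468 and 547 on the PTFC arrays, 548, 635 and 794 on the HFD24 arrays, and 250, 221 and 272 on the ND arrays. PTFC minus HFD24 was -0.61 ± 0.28 for Pdgfb, -0.57 ± 0.21 for Pdgfa and -0.45 ± 0.25 for Pdgfc, none past the test, and 0.09 ± 0.30 for Pdgfd. In HFD24 minus ND, Pdgfa, Pdgfc and Pdgfd gave 0.19, 0.72 and -0.00 and did not pass.

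Tgfb1 encodes the TGF-beta form most tied to fibrosis, made by macrophages, platelets and stellate cells. Its probe read 1116, 1168 and 1287 on the PTFC arrays, 1192, 969 and 1255 on the HFD24 arrays, 965, 1317 and 1032 on the HFD16 arrays, and 735, 825 and 441 on the ND arrays. Each of the other 9 arrays was above all 3 ND arrays. The difference was 0.85 ± 0.20 in HFD24 minus ND (log2, SE, 1.8-fold, limma adjusted p = 0.0108) and -0.08 in PTFC minus HFD24 (95% interval -0.50 to 0.34, limma adjusted p = 0.841). Without the first HFD24 array the HFD24 minus ND value was 0.73 and missed the threshold (limma adjusted p = 0.0513).

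Neither of the other TGF-beta ligands was higher in HFD24 than in ND past the test. Tgfb2 was lower in HFD24 than in ND by its brighter probe (-1.03 ± 0.29 log2, SE, limma adjusted p = 0.0304) and higher with PTFC than in HFD24 (1.21 ± 0.29, limma adjusted p = 0.0351). Its other probe gave the opposite signs, 0.77 and -0.67, neither past the test, so no direction of Tgfb2 is given. Tgfb3 gave -0.18 and 0.12 and did not pass. Of the 24 listed ligands, activators, receptors and Smads, all measured, 7 were higher in HFD24 than in ND and Tgfb2 was lower, with a list median of 0.15 log2 units. The 7 included Thbs1, thrombospondin 1, which releases active TGF-beta (2.37 ± 0.35, limma adjusted p = 0.00117), Eng, the coreceptor endoglin of endothelial cells (0.77 ± 0.16), and Ltbp3, which holds latent TGF-beta (1.09 ± 0.22). Thbs1 was dim on the ND arrays, at 45.4, 43.1 and 34.6 in deposited intensity, where signal above background was not tested. In PTFC against HFD24 Thbs1 was lower (-1.42 ± 0.35, limma adjusted p = 0.0349), Tgfb2 was higher by the probe above, and the other 22 did not pass (list median -0.16).

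Of 7 measured TGF-beta target genes 3 were higher in HFD24 than in ND, with a list median of 1.14. These were Timp1, the inhibitor of matrix proteases (6.26 ± 0.65 log2, SE, against ND arrays at 26.4, 22.2 and 14.8 in deposited intensity, where signal above background was not tested), Tgfbi (1.40 ± 0.26) and Pmepa1, a feedback inhibitor of Smad signalling (1.43 ± 0.34). With PTFC, Timp1 was lower than in HFD24 (-3.34 ± 0.65, limma adjusted p = 0.0198), Tgfbi gave -0.39 and Pmepa1 -1.11, neither past the test, and the list median was 0.03.

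Acta2 encodes smooth muscle alpha actin, which myofibroblasts and the smooth muscle of vessels make. Its brighter probe read 1434, 2206 and 1657 on the PTFC arrays, 1178, 1564 and 1361 on the HFD24 arrays, 1076, 2079 and 1536 on the HFD16 arrays, and 1283, 1222 and 1320 on the ND arrays. The groups overlapped. HFD24 minus ND was 0.10 with a 95% interval of -0.36 to 0.57 log2 units (limma adjusted p = 0.779), an interval that leaves out a 2-fold change either way, and PTFC minus HFD24 was 0.22 (-0.24 to 0.69). The dimmer probe, at 39 to 106 in deposited intensity and between the 18.8th and 29.2nd percentile of its array, gave -0.18 (-0.64 to 0.28) and 0.35 (-0.11 to 0.81). On the authors' scale without further normalization, where the median of all probes shifted by 0.30 in PTFC minus HFD24, the dimmer probe gave 0.87 and passed (limma adjusted p = 0.0306).

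Des encodes desmin, the intermediate filament protein of stellate cells and of all muscle. It read 889, 875 and 892 on the PTFC arrays, 695, 747 and 1204 on the HFD24 arrays, 639, 845 and 941 on the HFD16 arrays, and 407, 577 and 496 on the ND arrays. All ND arrays lay below the other 9. The difference was 0.92 ± 0.21 in HFD24 minus ND (log2, SE, 1.89-fold, limma adjusted p = 0.0112), and -0.17 in PTFC minus HFD24 (95% interval -0.62 to 0.29, limma adjusted p = 0.681). Without the first ND array HFD24 minus ND was 0.73 and missed the threshold (limma adjusted p = 0.0623). In HFD16 minus ND Des was at 0.85 ± 0.21 (limma adjusted p = 0.0189), and without the third HFD16 array, the one with the muscle signal, at 0.71 (limma adjusted p = 0.0835).

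Of 18 measured contractile and filament partners of these genes, 4 were higher in HFD24 than in ND and none lower (list median 0.16), and none passed in PTFC against HFD24 (list median -0.07). Those of smallest p were Vim, vimentin, the filament protein of mesenchymal cells and leukocytes (2.80 ± 0.44 log2, SE), Cnn2, a calponin found outside smooth muscle (1.30 ± 0.22), and Nes, nestin (1.41 ± 0.32). Tpm1, named after its values were seen, was the fourth, at 0.79.

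RefSeq promoter windows, from 250 bases before to 50 after the start of the gene in build GRCm38.p6, were used for Acta2, Des, Pdgfra, Reln, Sparc and Tgfb1. Windows on 1 chromosome were left out of the search for members. A member without a window here may thus still have one. The windows of Sparc, the member of largest difference, of Tgfb1, which was higher on every high-fat diet array, and of Acta2, which did not pass, are shown 5′ to 3′ on the gene's strand. Capitals mark matches on either strand to a CArG box with 1 C or G in its core of A and T, the site type through which serum response factor acts on smooth muscle genes, to GGGCGG, a GC box, and to CAGAC, a Smad binding letter string.
Acta2, chr19:34255324-34255623, minus strand: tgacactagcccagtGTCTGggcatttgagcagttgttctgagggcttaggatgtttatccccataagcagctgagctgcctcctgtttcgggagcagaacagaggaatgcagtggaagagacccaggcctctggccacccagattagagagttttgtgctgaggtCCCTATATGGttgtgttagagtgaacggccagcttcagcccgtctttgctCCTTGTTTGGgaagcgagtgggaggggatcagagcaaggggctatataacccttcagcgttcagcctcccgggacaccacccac
Sparc, chr11:55420031-55420330, minus strand: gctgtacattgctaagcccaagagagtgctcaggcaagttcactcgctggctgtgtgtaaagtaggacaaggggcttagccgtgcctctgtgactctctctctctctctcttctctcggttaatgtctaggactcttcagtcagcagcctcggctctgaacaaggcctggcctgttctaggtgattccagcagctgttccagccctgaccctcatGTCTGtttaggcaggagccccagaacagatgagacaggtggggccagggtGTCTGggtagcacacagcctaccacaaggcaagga
Tgfb1, chr7:25686752-25687051, plus strand: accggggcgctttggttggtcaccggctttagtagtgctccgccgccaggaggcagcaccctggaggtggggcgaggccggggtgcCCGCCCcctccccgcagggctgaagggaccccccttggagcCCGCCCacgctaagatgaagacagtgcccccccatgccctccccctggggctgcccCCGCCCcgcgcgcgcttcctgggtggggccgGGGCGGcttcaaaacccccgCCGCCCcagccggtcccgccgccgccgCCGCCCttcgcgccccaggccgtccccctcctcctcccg
The Acta2 window held 2 CArG boxes with 1 substitution, from bases -84 and -34, and 8.5% of all 32851 windows held at least 1. It held no CArG box with a core of A and T alone, which 1.63% of windows held. GGGCGG, found in 35.7% of windows, occurred 6 times in Tgfb1, 6 times in Reln and 2 times in Des. CAGAC, found in 49.6% of windows, occurred 2 times in Sparc and 1 time each in Acta2, Pdgfra and Des. Neither TGANTCA, the AP-1 site, nor TATAAA was in any of the 6 windows, against 7.81% and 13.6% of all windows. These matches describe letters in the windows only.

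Loxl2 encodes a lysyl oxidase that crosslinks collagen IV and fibrillar collagens. Its brighter probe read 634, 1259 and 919 on the PTFC arrays, 2295, 2480 and 1666 on the HFD24 arrays, 823, 1209 and 1254 on the HFD16 arrays, and 644, 667 and 544 on the ND arrays. The HFD24 arrays were above those of all other groups, and HFD16 lay above ND without overlap. Its dimmer probe read 136, 149 and 83.4 with PTFC, 298, 402 and 358 in HFD24, 101, 270 and 209 in HFD16, and 67.4, 66.5 and 113.7 in ND. Both probes thus placed HFD24 highest.

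In HFD24 minus ND the brighter Loxl2 probe gave 1.83 ± 0.27 log2 units (SE, 3.55-fold higher, limma adjusted p = 0.00117) and the dimmer 2.42 ± 0.36 (5.33-fold, limma adjusted p = 0.00125). In PTFC minus HFD24 they gave -1.41 ± 0.27 (2.67-fold lower, limma adjusted p = 0.0182) and -1.98 ± 0.36 (3.96-fold lower, limma adjusted p = 0.0168). The brighter probe lost its call without the first HFD24, the second HFD24 or the third PTFC array (limma adjusted p = 0.0722, 0.0541 and 0.0976), and the dimmer without the first HFD24 or the third PTFC array (0.0624 and 0.0976). In PTFC minus ND they gave 0.41 (95% interval -0.16 to 0.98) and 0.43 (-0.34 to 1.20), overlapped and did not pass.

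Loxl1, which crosslinks elastin, gave no call in HFD24. Its brighter probe read 1600, 1244 and 1574 on the PTFC arrays, 825, 1374 and 1434 on the HFD24 arrays, 814, 980 and 918 on the HFD16 arrays, and 1591, 1645 and 1144 on the ND arrays. It was lower in HFD16 than in ND (-0.63 ± 0.18 log2, SE, limma adjusted p = 0.0353), the one member probe that was, and HFD24 minus ND was -0.27 (95% interval -0.66 to 0.13). That HFD16 call was lost in 10 of 21 other settings, with limma adjusted p from 0.0183 to 0.44. The dimmer Loxl1 probe, at 43.7 to 117 in intensity, gave 0.36 in HFD16 minus ND and 0.60 in HFD24 minus ND, the opposite sign, at limma adjusted p = 0.35 and 0.116.

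The ratio of the brighter Loxl2 probe to the brighter Loxl1 probe on the same array was 0.396, 1.01 and 0.584 with PTFC, 2.78, 1.81 and 1.16 in HFD24, 1.01, 1.23 and 1.37 in HFD16, and 0.405, 0.405 and 0.475 in ND. The log2 ratio differed by -1.55 in PTFC minus HFD24 and by 2.08 in HFD24 minus ND, without overlap, and each gave an exact two-sided permutation p = 0.1, the smallest possible (0.12 adjusted over the 6 ratio tests). With probes picked for their values and a test that cannot go below that p, these ratios are a description.

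Lox, the founding member of the family, was dim. Its brighter probe read 43.9, 70.2 and 58.7 on the PTFC arrays, 71.3, 57.3 and 59.8 on the HFD24 arrays, 30.2, 97.2 and 67.1 on the HFD16 arrays, and 38.1, 45.6 and 22.2 on the ND arrays, between the 7.8th and the 31.8th percentile of its array. HFD24 minus ND was 1.30 ± 0.36 (log2, SE, limma adjusted p = 0.0255). This call was lost on the authors' scale (0.87, limma adjusted p = 0.113), without the first ND array (0.0799) or the third (0.0581), and without HFD24 array 1 (0.111). The dimmer Lox probe, at 15.4 to 54.2, gave -0.00 (95% interval -0.72 to 0.72) and no order of the groups. No detection flag was used, and whether either Lox probe is above background was not tested.

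**Figure D2:**
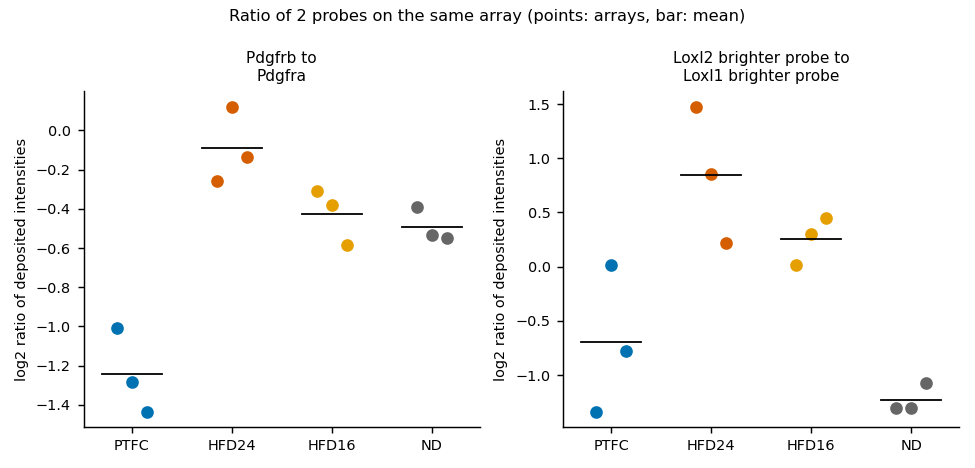
Log2 ratio of deposited intensities (vertical axis) of Pdgfrb to Pdgfra and of the brighter Loxl2 to the brighter Loxl1 probe, each taken within an array, by group; points are arrays and bars means. In both panels the 3 PTFC arrays lie below the 3 HFD24 arrays, with means of -1.24 against -0.09 and of -0.70 against 0.85.

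Of 21 measured collagen processing and crosslinking enzymes beyond the members, 5 were higher and 1 lower in HFD24 than in ND (list median 0.16). Serpinh1, the collagen chaperone HSP47, was at 2.25 ± 0.37 log2 units (SE, limma adjusted p = 0.00212), and Crtap, a part of the collagen prolyl 3-hydroxylase complex, at 1.29 ± 0.26. Named after their values were seen, the other three were Pcolce (2.02), Pcolce2 (1.14) and Tgm2 (0.65). The one that was lower was the lysyl oxidase paralogue Loxl4 (-1.37 ± 0.21, limma adjusted p = 0.00139), for which 2 dimmer probes gave 0.36 and 0.64, the second past the test upward, so its direction depends on the probe. Loxl3 gave 0.52 and did not pass. None of the 21 passed in PTFC against HFD24 (list median -0.20), with Serpinh1 at -1.06 ± 0.37, Crtap at -0.30, Loxl3 at -0.60 and Loxl4 at 0.26, although the dimmer Loxl4 probe that was higher in HFD24 was lower with PTFC (-0.79, limma adjusted p = 0.025).

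Among the 7 substrates of these enzymes, collagens and elastin, 3 were higher in HFD24 than in ND and 1 was lower. Col1a2, the second chain of collagen I, was at 3.69 ± 0.53 log2 units and Col3a1 at 3.31 ± 0.43, Col5a1, named after its value was seen, was at 1.35, and Col1a1, the first chain of collagen I, was lower at -0.91 ± 0.22 (SE, limma adjusted p = 0.0132). The ND arrays were dim, at 46.9, 55.4 and 68.0 in deposited intensity for Col1a2 and 29.3, 19.7 and 18.5 for Col3a1. Col1a1 read 96.0, 103 and 151 on the HFD24 arrays and 297, 223 and 274 on the ND arrays. The probes of Col1a1 and Col1a2 thus went opposite ways, so no direction of collagen I is given. Signal above background was not tested for these genes. With PTFC, Col1a2 (-2.54 ± 0.53) and Col3a1 (-2.14 ± 0.43) were lower than in HFD24, and Col1a1 gave -0.19 and did not pass.

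Sparc encodes a secreted protein that binds collagen and steers fibre assembly, made by stellate and endothelial cells among others. It had the largest difference of the members in HFD24 minus ND. Its probe read 6102, 7670 and 6285 on the PTFC arrays, 9973, 9743 and 11162 on the HFD24 arrays, 6201, 9502 and 7674 on the HFD16 arrays, and 1394, 2023 and 2582 on the ND arrays. PTFC lay between HFD24 and ND and overlapped with neither.

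HFD24 minus ND was 2.44 ± 0.22 for Sparc (log2, SE, 5.44-fold higher, limma adjusted p = 9.18e-05), and it passed in all 21 other settings. PTFC minus HFD24 was -0.70 ± 0.22 and did not pass (limma adjusted p = 0.0785), though 5 of 21 other settings gave a call, with limma adjusted p from 0.0251 to 0.253. PTFC minus ND was 1.74 ± 0.22 (3.35-fold higher, limma adjusted p = 0.00288). Of the 9 other measured SPARC family and matricellular genes 3 were higher in HFD24 than in ND, Fstl1, a follistatin-like SPARC relative (2.64 ± 0.29), Smoc2 (1.29 ± 0.23) and Thbs2, thrombospondin 2 (1.89 ± 0.42), with a list median of 0.22. Fstl1 was lower with PTFC than in HFD24 (-1.70 ± 0.29, limma adjusted p = 0.0162), Smoc2 gave -0.44 and Thbs2 -0.35, neither past the test, and the list median was -0.01.

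Reln encodes reelin, an extracellular glycoprotein best known from the layering of the brain cortex and a marker of stellate cells in rodent liver. It was the brightest member, between the 89.6th and 96.3rd percentile of its array, and read 15542, 27334 and 19556 on the PTFC arrays, 14341, 12464 and 26067 on the HFD24 arrays, 14086, 23722 and 12583 on the HFD16 arrays, and 8683, 10925 and 8160 on the ND arrays. The 9 arrays of the high-fat diet all lay above the 3 ND arrays. HFD24 minus ND was 0.89 ± 0.29 (log2, SE, 1.86-fold) at a limma adjusted p of 0.0502, just above the threshold of 0.05, and 7 of 21 other settings gave a call. PTFC minus HFD24 was 0.21 (95% interval -0.42 to 0.83), and PTFC minus ND 1.10 ± 0.29 (limma adjusted p = 0.0716). Of the 6 reelin receptors and adaptors Vldlr, the very low density lipoprotein receptor, was higher in HFD24 than in ND (1.17 ± 0.31, and 1.26 by its other probe), and Dab1, the adaptor of reelin signalling, was lower (-0.58 ± 0.17), while its other probes gave 0.20 and 0.03. Lrp8, the other reelin receptor, gave -0.51 and did not pass, and no gene of the list passed in PTFC against HFD24.

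**Figure D3:**
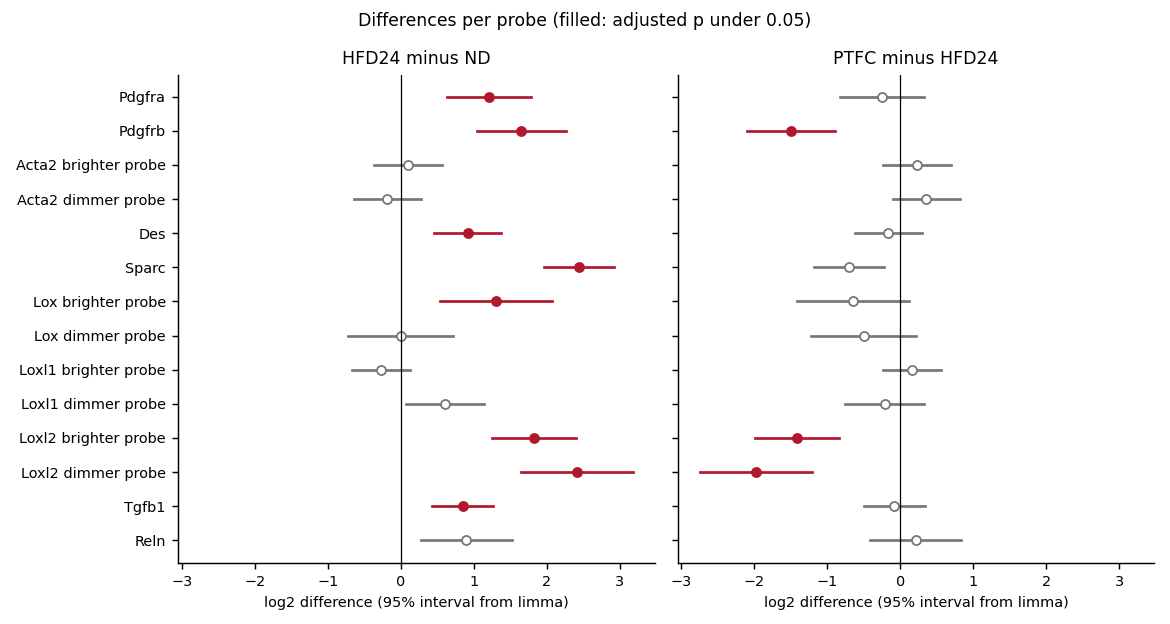
Log2 difference (horizontal axis) of each of the 14 probes in HFD24 minus ND and in PTFC minus HFD24, with 95% intervals from limma; filled points have an adjusted p under 0.05. In HFD24 minus ND 8 probes are filled, all above 0, and in PTFC minus HFD24 the 3 filled are Pdgfrb and both Loxl2 probes, below 0.

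At 16 weeks most of the members already stood apart from ND. In HFD16 against ND the same 8 probes were higher as in HFD24, against 8.64% of all probes passing upward, and the brighter Loxl1 probe was lower, against 7.69% passing downward. These comparisons share the ND arrays. Sparc was at 2.00 ± 0.22 log2 units (SE), Pdgfrb at 1.16 ± 0.28, Pdgfra at 1.05 ± 0.27, the Loxl2 probes at 0.89 ± 0.27 and 1.52 ± 0.36, the brighter Lox probe at 1.26 ± 0.36 and Tgfb1 at 0.84 ± 0.20, with limma adjusted p from 0.000527 to 0.0372. Reln gave 0.84 ± 0.29 and did not pass (limma adjusted p = 0.0643). Only Sparc, Tgfb1, Des and Pdgfrb among them kept their call in at least 17 of 21 other settings, and the count of members passing in HFD16 against ND fell to 2, 4, 3 and 3 without the first ND, the second ND, the second HFD16 or the third HFD16 array. Calls over all 26423 probes fell too, from 4316 to 1436, 2195, 2240 and 1779 in that order.

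Time on the diet was compared as HFD24 with HFD16, where age differs too. No member passed, by limma with Benjamini-Hochberg adjustment, and 0.0227% of all probes did. At an unadjusted limma p under 0.05 there were 3 of 14 member probes, against 2569 of all 26423 probes. They were both of Loxl2, at 0.94 ± 0.27 and 0.89 ± 0.36 (log2, SE), and the dimmer Acta2 probe at -0.50. Arrays of HFD24 did not overlap those of HFD16 in 3 member probes that were higher, both of Loxl2 and Sparc, against 6.24% of all probes, and in the dimmer Acta2 probe, which was lower, against 9.97%. The limma adjusted p of the Loxl2 probes was 0.301 and 0.456. Sparc was at 0.45 (95% interval -0.03 to 0.93), Pdgfrb at 0.49 (-0.11 to 1.10) and Tgfb1 at 0.01 (-0.41 to 0.43).

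In PTFC against ND, Sparc alone of the members passed, against 0.727% of all probes passing upward. In 5 of 14 probes, Sparc, Pdgfra, Des, Tgfb1 and Reln, the PTFC arrays did not overlap the ND arrays and were higher, and 9% of all probes did so. Pdgfra was at 0.96 ± 0.27, Des at 0.75 ± 0.21 and Tgfb1 at 0.77 ± 0.20 log2 units (SE), with limma adjusted p of 0.0859, 0.0908 and 0.0661. In HFD24 against ND 10 of 14 probes did not overlap and were higher, against 13.9% of all probes, and in PTFC against HFD24 4 of 14 did not overlap and were lower, Pdgfrb, Sparc and both Loxl2 probes, against 14.1%. The dimmer Acta2 probe did not overlap and was higher, against 16.8%.

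**Figure D4:**
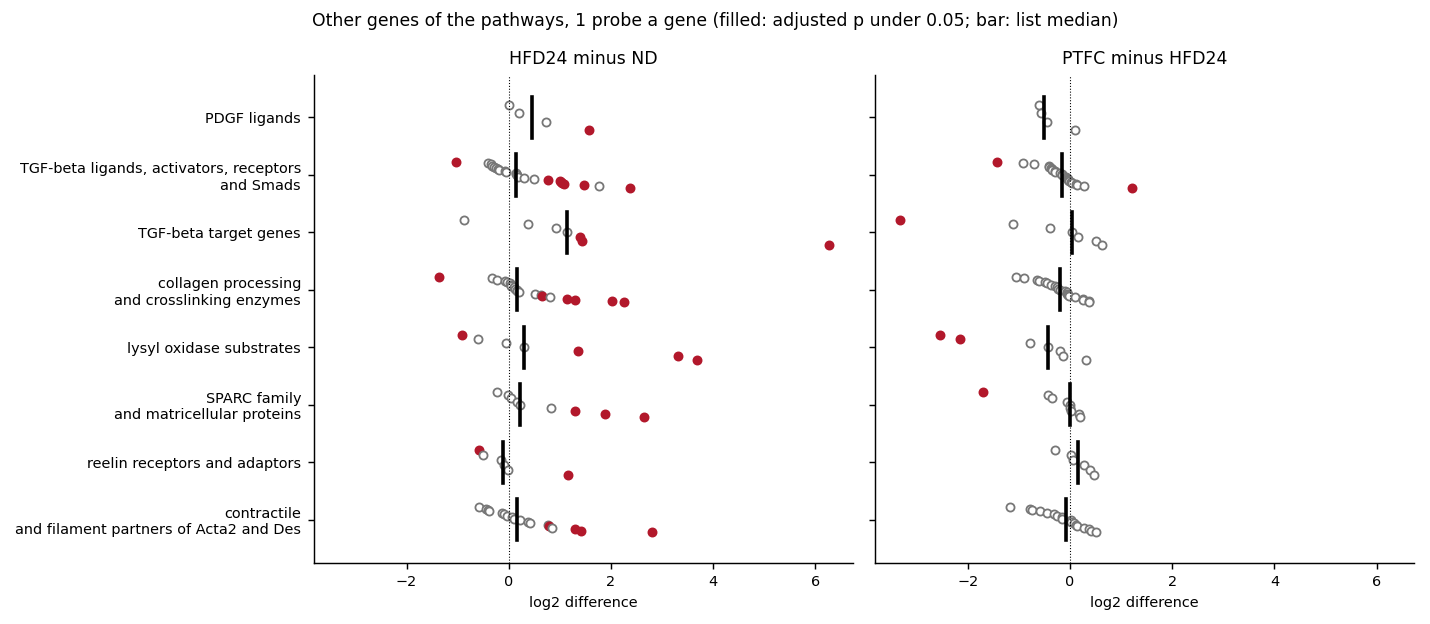
Log2 difference (horizontal axis) of the other genes of 8 pathway lists, 1 probe a gene, in HFD24 minus ND and PTFC minus HFD24; filled points have a limma adjusted p under 0.05 and bars are list medians. Timp1 is the point at 6.26 and -3.34; its ND arrays were dim, and signal above background was not tested there.

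Markers of several cell types moved with the members, and their part in these results was not tested. Of 16 measured quiescent stellate cell markers 6 were higher in HFD24 than in ND and 1 lower, with Lrat, which makes retinol esters, at 2.24 ± 0.31, Colec11 at 1.29 ± 0.21 and Bmp5 at 1.12 ± 0.18 log2 units (SE). In PTFC against HFD24 1 of the 16 was higher and none lower, with Lrat at -0.60, Colec11 at -0.23 and Bmp5 at -0.62, none past the test. Their summed normalized intensity was 171021 to 198250 with PTFC, 178480 to 190279 in HFD24, 156909 to 165075 in HFD16 and 128306 to 173278 in ND. Sums here and below add linear intensities, so the brightest genes of a list weigh most in them. The one that was lower in HFD24 and higher with PTFC, named after its values were seen, was Lhx2 (-0.75 and 0.98). Of 6 portal fibroblast markers 3 were higher in HFD24 than in ND and 3 lower with PTFC than in HFD24. Thy1 was at 1.74 ± 0.37 and -1.37 ± 0.37 and Entpd2 at 0.91 ± 0.17 and -0.97 ± 0.17 in these comparisons, and Cd34 at 1.17 and -0.62, the last not past the test. Thy1 read 667, 3483 and 1818 in deposited intensity on the HFD16 arrays. Cd3d, of the T and NK cell list, had the same order there, at 249, 3774 and 1068. Which cells the Thy1 signal came from was not tested. Gli1, named after its values were seen, was the other that was lower with PTFC (-0.76). The portal fibroblast sum was 2156 to 2281 with PTFC, 3820 to 4581 in HFD24, 2986 to 6084 in HFD16 and 1896 to 2031 in ND. PTFC lay below HFD24 without overlap, as for Pdgfrb, Sparc and both Loxl2 probes. This was not particular to portal fibroblasts. Kupffer cell sums were 48410 to 60177 with PTFC and 78393 to 136224 in HFD24. Cd5l alone, of that list, read 31454, 26932 and 16518 in deposited intensity with PTFC and 49014, 70063 and 40203 in HFD24. Neutrophil sums were 1679 to 2140 and 3382 to 5044, and T and NK cell sums 3970 to 4234 and 5016 to 6173. The monocyte and macrophage sums did not overlap either, and the hepatocyte sums lay higher with PTFC without overlap.

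All 11 measured monocyte and macrophage markers were higher in HFD24 than in ND, with Cx3cr1 at 3.10 ± 0.44, Cd68 at 2.96 ± 0.44 and Tyrobp at 3.41 ± 0.53. Cx3cr1 alone of the list was lower with PTFC than in HFD24 (-1.75 ± 0.44), and Cd68 and Tyrobp gave -0.91 and -0.99 and did not pass. Their sum was 22629 to 33126 with PTFC, 41561 to 59199 in HFD24, 13826 to 59535 in HFD16 and 6962 to 11822 in ND. Kupffer cell markers were higher in HFD24 than in ND in 6 of 7 cases, with Folr2 at 1.60, Cd5l at 2.42 and Vsig4 at 2.43, and endothelial markers in 7 of 11, with Lyve1 at 3.03, Cdh5 at 1.25 and Stab2 at 1.04. None of either list passed in PTFC against HFD24, where these genes gave -0.30, -1.21, -0.21, -0.07, -0.30 and -0.07. The endothelial sum was 53472 to 59625 with PTFC, 50011 to 67182 in HFD24, 41849 to 54475 in HFD16 and 29486 to 40846 in ND. On all 9 high-fat diet arrays it exceeded ND, as for Sparc, Pdgfra, Des, Tgfb1 and Reln. The portal fibroblast sum and the monocyte and macrophage sum did so too. In HFD24 against ND 2 of 5 neutrophil markers were higher, S100a9 (2.73) and Csf3r (1.93), with Elane at 0.64. Of 7 T and NK cell markers 2 were higher, Nkg7 (2.30) and Cd3d (2.20), with Cd3g at 0.82. Of 4 platelet markers Pf4 was higher (1.62), with Itga2b at 0.21 and Gp9 at -0.29, and of 5 mesothelial markers Wt1 (2.03), with Msln at 0.49 and Upk1b at -0.32. Of 9 hepatocyte markers Tat was lower (-0.87), with Rbp4 at -0.22 and Hnf4a at -0.27, and of 5 cholangiocyte markers Cldn7 (-1.57) and Epcam (-0.60), with Krt7 at -0.16. No muscle marker passed, with Mylpf at 0.50, Myh4 at -0.54 and Tnni2 at 0.68. In PTFC against HFD24 S100a9 was lower (-1.73) and Cldn7 higher (0.93), and no other gene of these lists passed. No measured marker of any list was at or below 0 in deposited intensity on all arrays of a group.

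Over all 21 alternatives the Pdgfrb difference in PTFC minus HFD24 stayed between -1.74 and -1.22 (limma adjusted p 0.00828 to 0.0997), and where the Loxl2 probes were tested theirs stayed between -1.70 and -1.14 and between -2.21 and -1.55. The deposited values of each array were whole multiples of a step, to within 0.02 of it for nearly all values, which was 0.947 ± 0.0872 for PTFC, 0.976 ± 0.137 for HFD24, 0.921 ± 0.213 for HFD16 and 1.31 ± 0.133 for ND (SD, n = 3). The step of every ND array was above that of the other 9, so step and normal diet cannot be told apart. With the step as a covariate, Sparc at 1.99 and the brighter Loxl2 probe at 1.84 passed in HFD24 against ND. The other 6 probes that had passed gave 1.83 for the dimmer Loxl2 probe, 1.07 for Pdgfrb, 0.73 for the brighter Lox probe, 0.71 for Tgfb1, 0.63 for Des and 0.58 for Pdgfra, with limma adjusted p from 0.0661 to 0.417.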

How the data were processed

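Liver RNA was labelled with Cy5, per the labels' protocols, and the deposited table holds a linear intensity for each probe on each of the 12 arrays. No label or file header says how the authors corrected background or scaled the arrays. Values under 0 (291 of 317076) were set to 0, 1 was added, and log2 values were quantile normalized across arrays. With limma 3.58.1 (R 4.3.3), a mean per group was estimated from the 12 arrays together, with a variance trend and no replicate block, for all 26423 probes. Tests were two-sided, and "passed" means a p-value under 0.05 after Benjamini-Hochberg adjustment over every probe. The added 1 shrinks differences of dim probes. The limma fit alone was tested on simulated data, with noise drawn independently for each probe. Normalization and the scaling step were not part of that simulation. Exact permutation tests used scipy 1.17.1. Other genes of the pathways and markers were read from the brightest probe, and the text names the 3 of smallest p in HFD24 against ND from each list, with all PDGF and TGF-beta ligands and lysyl oxidases. Members and lists were chosen with earlier results of these data known. Arrays of the same number deviated together no more than others: 3 of 18 same-numbered pairs correlated above 0.1, with a median of -0.055, so the numbers were not taken as pairs. Alternatives were other scalings, pseudocounts and filters, the scaling step as a covariate, the replicate block, fewer arrays and each array left out.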

Additional observations from a re-analysis of the deposited data

How the results depend on the processing

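The 21 member differences that passed kept their sign in all settings run, and 23 of the 49 that did not pass changed sign in at least 1. Leaving out each array in turn gave 6 to 9 member probes passing in HFD24 against ND, 0 to 4 in PTFC against HFD24, 2 to 10 in HFD16 against ND, 0 in HFD24 against HFD16 and 1 to 2 in PTFC against ND. Over all probes the same gave 1981 to 6486, 8 to 2728, 1436 to 5896, 3 to 11 and 56 to 662, in that order of comparisons. With the scaling step as a covariate, 2, 0 and 0 member probes passed in HFD24, HFD16 and PTFC against ND, and 343, 59 and 25 of all probes. With the replicate block, 8, 3, 8, 0 and 1 member probes passed in the 5 comparisons, and 3445, 611, 3305, 4 and 289 of all probes. On the authors' scale, 3101 of all probes passed in PTFC against HFD24, 2864 higher and 237 lower, against 812 and 716 in the fit reported, and 1515 higher and 2738 lower in HFD24 against ND, against 2246 and 2102. There the split in HFD16 against ND was 1393 higher and 3467 lower, against 2283 and 2033, and in PTFC against ND 227 and 110, against 192 and 271. The median of all probes shifted on that scale by -0.28 in HFD24 minus ND, 0.30 in PTFC minus HFD24, -0.30 in HFD16 minus ND and 0.10 in PTFC minus ND. Median centring gave 255 in PTFC against ND, 74 higher and 181 lower. It gave 2 in HFD24 against HFD16, as did the authors' scale; limma without a trend gave 3 there and only the 6 arrays gave 0, with 2505 at an unadjusted p under 0.05. With only the 6 arrays 2 member probes passed in PTFC against ND, and 502 of all probes. The cause of these changes was not tested.

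Signs turned as follows among differences that did not pass. With the step covariate, HFD24 minus ND was -0.16 for the brighter Acta2 and 0.17 for the dimmer Lox probe. HFD16 minus ND was then -0.021 for the brighter Acta2 probe, 0.038 for the dimmer Lox probe and -0.030 for Reln. PTFC minus ND was -0.48 for Pdgfrb, -0.064 for the dimmer Acta2, 0.0214 for the brighter Loxl1 and -0.20 for the dimmer Loxl2 probe. With median centring PTFC minus HFD24 was -0.014 for the brighter Acta2 probe, -0.053 for the brighter Loxl1 probe and -0.090 for Reln. On the authors' scale it was 0.050 for Des, 0.30 for the dimmer Loxl1 probe and 0.070 for Tgfb1, HFD16 minus ND was -0.13 for the dimmer Acta2 and -0.13 for the dimmer Loxl1 probe, and PTFC minus ND was 0.0217 for the brighter Loxl1 probe. With 1 array left out, HFD24 minus ND ran from -0.33 to 0.044 for the dimmer Acta2 and from -0.15 to 0.13 for the dimmer Lox probe. PTFC minus HFD24 ran from -0.30 to 0.0185 for Des, from -0.0059 to 0.27 for the brighter and from -0.43 to 0.017 for the dimmer Loxl1 probe, from -0.22 to 0.023 for Tgfb1 and from -0.0011 to 0.52 for Reln. HFD24 minus HFD16 ran from -0.10 to 0.41 for Pdgfra, from -0.11 to 0.20 for Des, from -0.39 to 0.34 for the brighter Lox probe, from -0.092 to 0.15 for Tgfb1 and from -0.25 to 0.33 for Reln. PTFC minus ND ran from -0.0835 to 0.44 for Pdgfrb, from -0.0186 to 0.40 for the dimmer Acta2 and from -0.21 to 0.00098 for the brighter Loxl1 probe. The filter on the dimmest 25% of probes and the choice of 1 probe a gene removed some dimmer member probes, which have no value there.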
